A study of Osmia excavata with 6 samples.

Results

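Ubiquitin ligases, ubiquitin-conjugating enzymes and ubiquitin hydrolases of Osmia excavata, a solitary mason bee, were followed across control bees and bees given a water immersion. A gene was taken as a member when its description named a bee genus and the words E3 ubiquitin, ubiquitin-protein ligase, ubiquitin-conjugating or ubiquitin carboxyl-terminal hydrolase, and did not contain the word proteasome. The rule found 128 of the 37061 assembled genes, among 10751 that name a bee. They were 18 conjugating enzymes (E2), 85 ligases (E3) and 25 hydrolases. The ligases comprised 17 of the HECT class, 8 of the RING-between-RING class and 60 others. Of the hydrolases, 22 belonged to the ubiquitin-specific protease family (USP) and 3 to the smaller UCH family. The Pfam domains listed beside the descriptions were the class-defining ones in 17 of 18 E2s, 15 of 17 HECT ligases, 5 of 8 RING-between-RING ligases, 20 of 22 USP hydrolases and all 3 UCH hydrolases. Of the 60 other ligases, 26 carried a RING, RING-variant, U-box or UBR zinc-finger domain, and 6 had no Pfam entry.

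The study compared 3 control libraries with 3 libraries of immersed bees to ask what accompanies the better emergence from the cocoon after wetting. The immersion libraries are titled as a decocooning group, so wetting and leaving the cocoon cannot be told apart. All 6 carry the species name in place of a tissue. No source used here gives the strain, body part, sex or age, how long the immersion lasted, or when the bees were sampled. The replicates are not stated to come from separate animals, so p-values measure only the spread between these samples, which may be technical.

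Ubiquitin is a small protein that cells attach to other proteins. An activating enzyme (E1) loads it, an E2 carries it, and an E3 chooses the substrate. RING ligases hold the loaded E2 against the substrate, HECT ligases take ubiquitin onto a cysteine of their own first, and RING-between-RING ligases combine both modes. Hydrolases, also called deubiquitinases, take ubiquitin off again. Chains of ubiquitin send proteins to the proteasome, and single ubiquitins or other chain types mark DNA damage, histones and membrane receptors. In insects the system is best known from Drosophila, where it takes part in cell division, synapse growth, receptor signalling and the breakdown of larval tissue at metamorphosis.

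Each library held between 16765886 and 19953734 estimated counts, of which 92.6% to 94.5% fell on Hymenoptera genes. Genes matching a nematode worm made up 3464 CPM (a rate per fixed number of counts) in control 1, 0.908 and 0.208 in controls 2 and 3, and 14053 to 14978 in the immersion libraries. Genes matching a mammal made up 20528 CPM in control 1, 558 and 331 in controls 2 and 3, and 7123 to 11429 in the immersion libraries. Control 1 thus carried foreign reads at a level the other controls did not, and it may not be a control like them. Results are also given without control 1. In those fits every immersion library carries many foreign reads and controls 2 and 3 carry few. Foreign reads and immersion cannot be told apart there, so a call without control 1 is no firmer than one with it. Control 1 lay closest to the immersion libraries in 98 of the 117 tested members (83.8%), against 71.7% of all tested genes. Control 3 lay farthest from them in 96 members (82.1%), against 76.8% of all tested genes. Its scaling factor of 0.754 was the lowest of the 6.

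The summed level of the members in TPM (transcript levels scaled for gene length) did not separate the groups. This sum was 4982, 5126 and 4859 in controls 1, 2 and 3 and 5167, 4790 and 5078 in immersion libraries 1, 2 and 3. As CPM of the Hymenoptera counts, before scaling, it was 10256, 9945 and 9342 against 10834, 10283 and 10841. By that measure every immersion library lay above every control, narrowly for immersion 2 and control 1. Whether the sum separates the groups thus depends on the scale. Over the 6 libraries, 9 members averaged over 100 TPM, 97 lay between 10 and 100, and 22 lay below 10. The most abundant was HERC4 (TRINITY_DN1660_c0_g1), a HECT ligase with RCC1-like repeats, with 402 ± 146 TPM (SD, n = 6). It was followed by the E2s eff, at 184 ± 28.9 TPM, and Ubc6, at 182 ± 25.2 TPM, whose spreads overlap. In Drosophila eff serves many ligases, and Ubc6 is the homolog of yeast RAD6. The tested E2s had a median of 52.5 TPM, the HECT ligases 33.9, the other ligases 23.0 and the USP hydrolases 17.8.

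**Figure D1:**
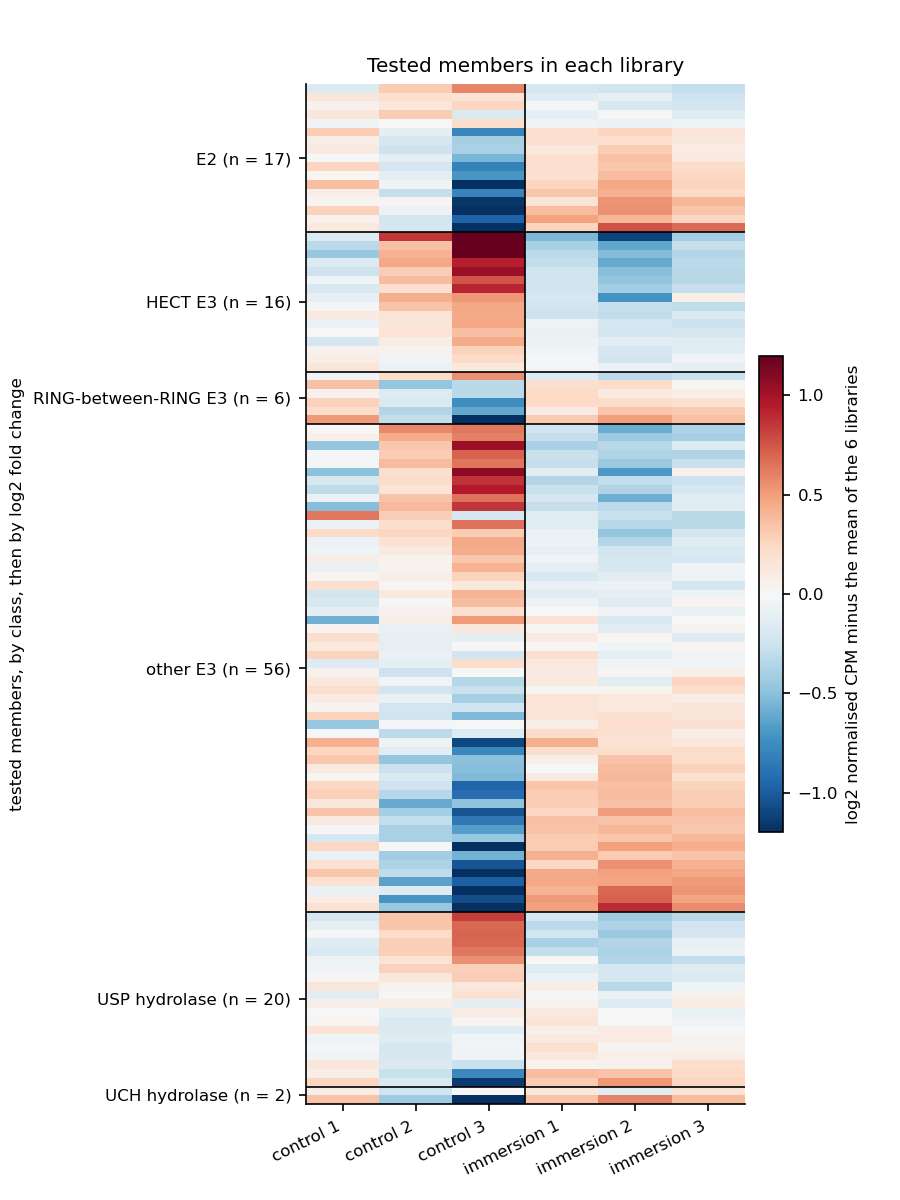
Normalised CPM of the 117 tested members (rows, grouped by class and ordered by log2 fold change) in the 6 libraries (columns), as log2 difference from each member's mean. Most HECT ligases (16 rows) are high in control 3 and low in the immersion libraries, most E2s show the reverse, and control 1 resembles the immersion libraries in most rows.

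Of the 128 members, 117 passed the filter on low counts. The other 11 were fragments of at most 717 bases with at most 20.4 estimated counts in any library. None of the 117 (0) passed an adjusted p of 0.05 by edgeR's quasi-likelihood test, with 0 of all 9250 tested Hymenoptera genes called (0%). The smallest adjusted p among the members was 0.0907. At an unadjusted p under 0.05, 15 members were higher and 27 lower after immersion, together 35.9%, which is close to the 34.8% of all tested genes (14.2% higher and 20.6% lower). With upper-quartile scaling the split was 17 higher and 20 lower, and that scaling moved the median log2 fold change of all genes from 0.02 to 0.12. The groups did not overlap in 59 members (50.4%, against 46.2% of all genes), 31 of them higher (24% of all genes) and 28 lower (22.2%). The median log2 fold change of the members was -0.01, and 5 of the 117 (4.27%) exceeded 1 in absolute size, against 9.99% of all tested genes. In bulk RNA, fewer cells of a type and less RNA per cell cannot be told apart.

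DESeq2 called 21 of the 117 members (17.9%, against 22.4% of all genes). Its 7 higher members (7.61% of all genes were called higher) were the ligases RFWD3, Rnf8, Rad18, MARCH5, tmem129, rnf181 and a gene described as sina-like. Its 14 lower members (14.8% of all genes) included the HECT ligases HUWE1, UBE3A, AREL1, SMURF2 and HERC2, the ligases KCMF1, MARCH6, Mylip and UBR2, the hydrolases USP31 and USP34, and the E2 Ubc6. Without control 1, edgeR called 69 of 119 members (58.0%, against 52.3% of all genes), 34 higher (25.7% of all genes) and 35 lower (26.6%), among them 20 of DESeq2's 21. Without control 3 it called 0 of the members (3.87% of all genes). limma-voom called 0 without library weights and 94 with them (against 68.9% of all genes).

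The direction of a member followed the length of its transcript. Of the 70 tested members of at least 3000 bases, 54 were lower after immersion, with a median log2 fold change of -0.30. Of the 47 shorter ones, 42 were higher, with a median of 0.50. Among all tested genes the medians at these lengths were -0.35 and 0.33, with 73.6% of the longer ones lower and 68.9% of the shorter ones higher, against 77.1% and 89.4% of the members. These differences between members and all genes were not tested. Across genes, which are not independent replicates, Spearman's rho between length and log2 fold change was -0.79 over the 117 members and -0.49 over the 9250 genes. The members are long, with a median of 3448 bases against 2084 for all Hymenoptera genes. The part of length in the differences below was not tested beyond a fit with the length trend removed, whose values are given with each class. The limits of 3000 and 4000 bases were chosen after the values were seen.

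**Figure D2:**
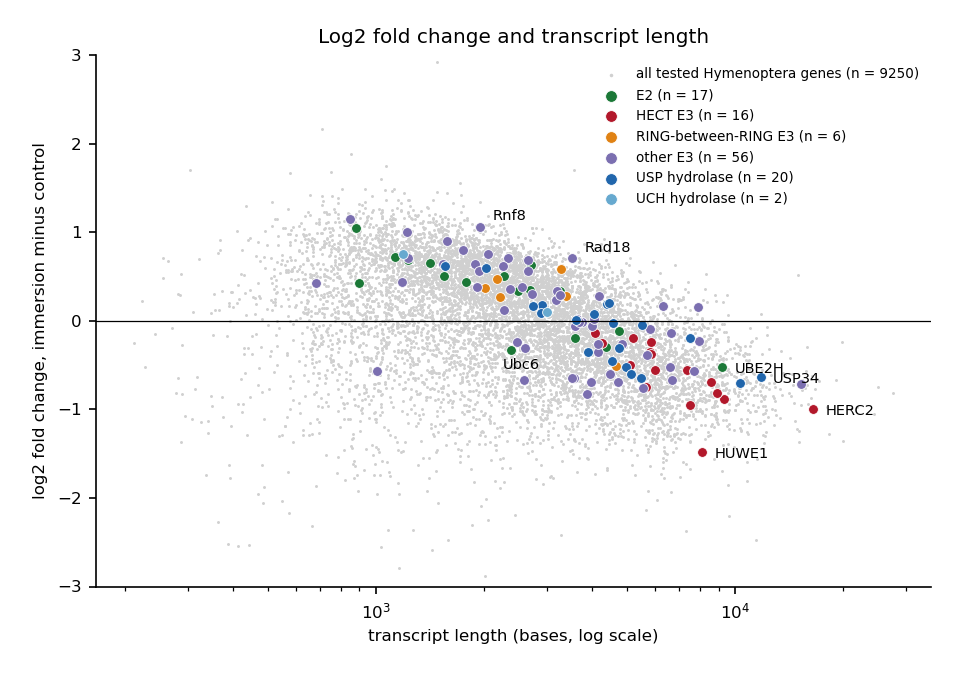
Fitted log2 fold change, immersion minus control, against transcript length in bases on a log axis for 9250 Hymenoptera genes (grey) and the 117 tested members (coloured by class); 16 genes lie outside the vertical range. Members above 0 are mostly under 3000 bases and those below 0 mostly longer, with Rad18 and Ubc6 on the other side of 0 from most members of their length.

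Among the E2s, 12 of the 17 tested were higher after immersion and 5 lower, with a median log2 fold change of 0.43. At an unadjusted p under 0.05, 4 were higher (23.5%, against 14.2% of all genes) and 2 lower (11.8%, against 20.6%). The 4 were Ubc4, vih, Ube2v2 and UBE2G1. Ubc4, the Drosophila counterpart of human UBE2K, had 97.6, 75.6 and 53.2 normalised CPM in the order controls 1, 2 and 3, and 117, 125 and 109 in immersion libraries 1, 2 and 3, the order kept below. Every immersion library lay above every control, with the gap narrowest to control 1. Its log2 fold change was 0.63 ± 0.23 (SE; edgeR adjusted p = 0.115).

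The E2 vih is the Drosophila vihar, which supplies the anaphase-promoting complex during mitosis. Its 29.0, 23.9 and 14.0 normalised CPM in the controls stood against 39.3, 37.2 and 33.6 after immersion (log2 fold change 0.72 ± 0.27, edgeR adjusted p = 0.123). The groups did not overlap. The E2 S, which lengthens the chains that complex builds, showed the same order, with 25.2, 19.7 and 7.25 in the controls and 27.0, 30.7 and 26.3 after immersion. Its log2 fold change of 0.68 ± 0.41 did not pass (edgeR adjusted p = 0.239). It lies outside the rule for named genes and was chosen after its values were seen.

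Ube2v2 is a variant without catalytic activity that helps build the chains used in DNA repair signalling. It had 69.0, 63.7 and 46.9 normalised CPM in the controls and 79.4, 87.9 and 74.8 after immersion (0.43 ± 0.18, edgeR adjusted p = 0.140). UBE2G1 went from 204, 185 and 123 to 228, 259 and 239 (0.50 ± 0.21, edgeR adjusted p = 0.141). In both, all immersion libraries were above all controls and control 3 was the lowest library. Without control 1, Ubc4, vih, Ube2v2 and UBE2G1 each passed, with adjusted p between 0.0114 and 0.0356.

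The lower E2s were UBE2H, Ubc6, UBE2R2, eff and Ube2q1. Ubc6 had 298, 311 and 305 normalised CPM in the controls and 246, 253 and 228 after immersion. The controls were nearly level, all immersion libraries lay below them, and the log2 fold change was -0.33 ± 0.14 (edgeR adjusted p = 0.143). DESeq2 called Ubc6, with an adjusted p of 0.0427, and without control 1 it stayed above the threshold in edgeR (adjusted p = 0.0720). Among the members under 3000 bases it was the 1 lower at an unadjusted p under 0.05.

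UBE2H, the E2 of the CTLH ligase complex in mammals, had 113, 156 and 190 normalised CPM in the controls and 109, 107 and 104 after immersion. All 3 immersion libraries lay just below control 1 and well below control 3 (-0.52 ± 0.21, edgeR adjusted p = 0.130). Without control 1 its adjusted p was 0.00939. With a transcript of 9229 bases it was the longest E2, and with the length trend removed its log2 fold change was 0.15. UBE2R2, the partner of cullin ligases, had 199, 209 and 230 against 188, 168 and 164 (-0.29 ± 0.15, edgeR adjusted p = 0.183), again with no overlap. The abundant eff had 513, 574 and 413 against 435, 458 and 420, and its groups overlapped (-0.19 ± 0.18, edgeR adjusted p = 0.416).

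The median log2 fold change of the E2s was 0.62 without control 1, 0.23 without control 3 and 0.23 with the length trend removed. It was 0.07 with a term for the 4 libraries that carry worm reads, a fit that sets immersion against control 1 alone. Of the 12 E2s under 3000 bases, 11 were higher.

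All 16 tested HECT ligases were lower after immersion, with a median log2 fold change of -0.56. That direction held for each of them with RLE and upper-quartile factors, in the whole-table fit and without control 1 or control 3, but not for 6 with the length trend removed and 2 with the term for worm reads described above. At an unadjusted p under 0.05, 10 of the 16 were lower, against 20.6% of all genes, and in 8 every immersion library lay below every control, against the same 22.2% of all genes. The HECT ligases are also the longest class, from 4078 to 16522 bases. Among all tested genes of at least 4000 bases, 83.5% were lower, 46.4% were lower at an unadjusted p under 0.05, and the median was -0.47. The groups were fully separated, with immersion the lower one, in 1170 of these 2499 long genes. The 36 other members of that length had a median of -0.30, and 29 of them were lower.

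HUWE1, a giant ligase with many substrates in mammals, is split over 2 assembled genes. The one without the HECT domain (TRINITY_DN1468_c1_g1) carries the N-terminal part by its Pfam domain. It had 111, 226 and 321 normalised CPM in the controls and 85.5, 57.4 and 93.2 after immersion, with all immersion libraries below control 1. Its log2 fold change of -1.48 ± 0.39 was the lowest of the members (edgeR adjusted p = 0.0907). The gene with the HECT domain (TRINITY_DN645_c0_g1) had 225, 412 and 727 in the controls and 248, 216 and 242 after immersion, and control 1 lay among the immersion libraries (-0.95 ± 0.38, edgeR adjusted p = 0.134). The level of the N-terminal gene relative to the HECT gene was 49.1%, 54.8% and 44.2% in the controls and 34.5%, 26.6% and 38.5% after immersion. With the counts of both summed, the log2 fold change was -1.13 ± 0.39. Without control 1, the N-terminal and the HECT gene had adjusted p of 0.00680 and 0.00928.

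UBE3A, the ligase lost in Angelman syndrome in humans, had 124, 166 and 217 normalised CPM in the controls and 109, 92.3 and 101 after immersion (-0.74 ± 0.22, edgeR adjusted p = 0.0957). The immersion libraries sat just below control 1, and control 3 was the highest library. AREL1, which restrains apoptosis in mammals by acting on antagonists of the apoptosis inhibitors, had 158, 164 and 200 against 122, 119 and 128 (-0.50 ± 0.15, edgeR adjusted p = 0.0979). Its groups were separated by a wider gap for their spread. With the length trend removed, UBE3A and AREL1 had log2 fold changes of -0.29 and -0.14.

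HERC2, the longest member, takes part in the DNA damage response in mammals. It had 75.9, 123 and 227 normalised CPM in the controls and 72.7, 61.9 and 78.7 after immersion, so control 1 overlapped with the immersion libraries (-0.997 ± 0.37, edgeR adjusted p = 0.120). With the length trend removed its log2 fold change was -0.05. The HERC4 gene that was the most abundant member had 720, 1047 and 1105 against 671, 468 and 812 (-0.56 ± 0.26, edgeR adjusted p = 0.168), also with overlap. Another gene described as HERC4 (TRINITY_DN1868_c0_g1) had 92.3, 104 and 119 against 87.4, 79.6 and 80.6, with no overlap (-0.35 ± 0.15, edgeR adjusted p = 0.143). The remaining lower HECT ligases included Trip12 (-0.69). UBE3A, AREL1, HERC2, Trip12 and the less abundant HERC4 gene were chosen after their values were seen.

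The Nedd4 family recognises its substrates through WW domains and is known for sending membrane receptors to endocytosis. Of its members, SMURF2 had 30.0, 38.4 and 41.9 normalised CPM in the controls and 25.9, 24.8 and 24.4 after immersion (-0.55 ± 0.18, edgeR adjusted p = 0.104; 0.01 with the length trend removed). Hecw2 (-0.38), Nedd4 (-0.19) and Su(dx) (-0.14), a regulator of Notch in Drosophila, lay closer to 0, and in these 3 the groups overlapped. SMURF2 and these 3 were chosen after their values were seen.

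The HECT median was -0.70 without control 1, where 12 of the 16 passed (75.0%, against 58.6% called lower among all tested genes of at least 4000 bases), and -0.39 without control 3, where none of the 16 did. With the length trend removed it was -0.03, with 10 of 16 lower, and with the term for worm reads it was -0.17, with 14 of 16 lower.

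**Figure D3:**
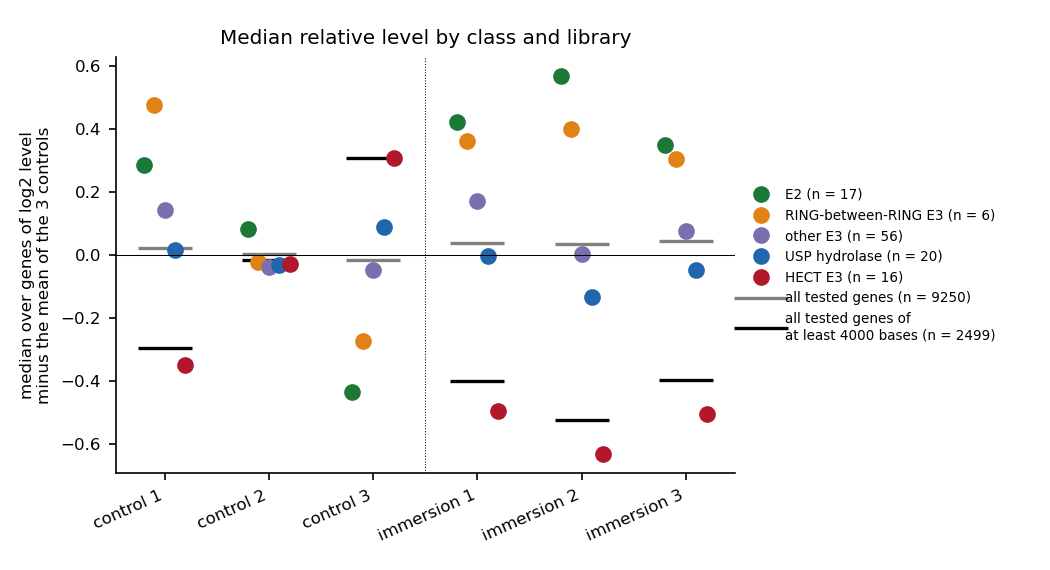
Median over genes of the log2 level relative to the mean of the 3 controls, for 5 member classes (points), all tested genes and all tested genes of at least 4000 bases (bars), in each library. The HECT ligases run from 0.31 in control 3 to -0.63 in immersion 2, near the long genes in every library, and the E2s from -0.43 to 0.57.

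**Figure D4:**
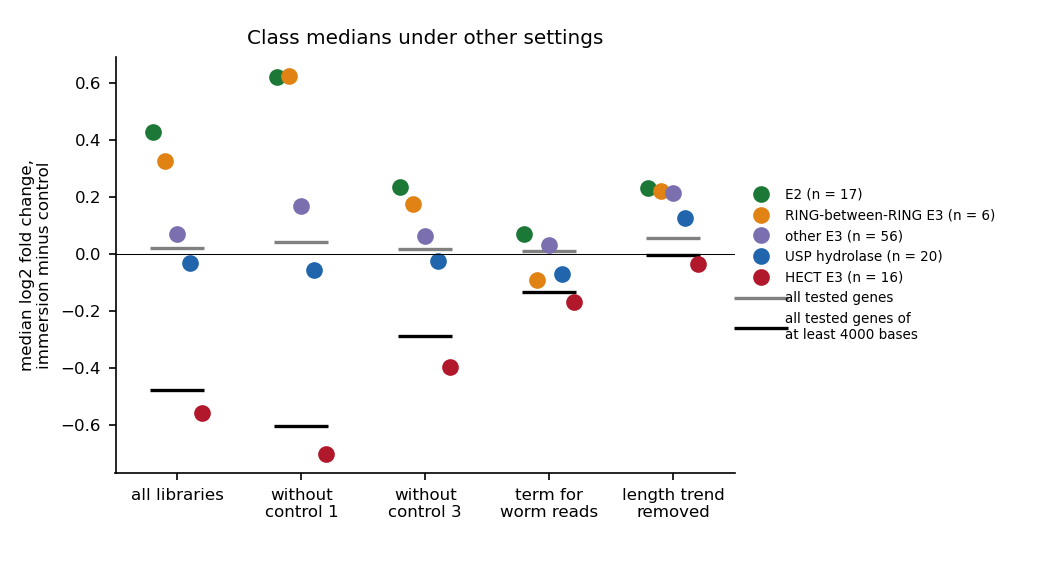
Median log2 fold change, immersion minus control, of 5 member classes (points), all tested genes (grey bars) and tested genes of at least 4000 bases (black bars) with all libraries, without control 1, without control 3, with a term for libraries with worm reads and with the length trend removed. The E2 and HECT medians are 0.43 and -0.56 with all libraries, 0.07 and -0.17 with the term and 0.23 and -0.03 with the trend removed.

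The 6 tested RING-between-RING ligases centred on a log2 fold change of 0.33 (median), and 5 were higher, against 51.2% of all genes. The ligases of this class without its defining Pfam domain were the tested genes described as RNF14-like, all of them higher. Park2 encodes parkin, which marks damaged mitochondria for removal. It had 19.9, 13.3 and 11.0 normalised CPM in the controls and 18.3, 21.5 and 21.3 after immersion, with control 1 inside the immersion range (0.47 ± 0.26, edgeR adjusted p = 0.210). Rnf19a was the lower member, with 68.3, 81.3 and 102 against 62.5, 56.1 and 58.0 and no overlap (-0.51 ± 0.18, edgeR adjusted p = 0.111). Both were chosen after their values were seen. The class median was 0.63 without control 1, 0.22 with the length trend removed and -0.09 with the term for worm reads.

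The 56 other tested ligases split into 30 higher and 26 lower, with a median log2 fold change of 0.07, or 0.21 with the length trend removed. At an unadjusted p under 0.05, 10 were higher (17.9%) and 8 lower (14.3%), against 14.2% and 20.6% of all genes. The 4 leading higher ligases were RFWD3, Rad18, MARCH5 and Rnf8, and 3 of these 4 are known for work on damaged or replicating DNA.

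RFWD3 (TRINITY_DN8537_c0_g2) acts on the single-strand binding protein RPA at stalled replication forks in mammals. It had 19.9, 17.5 and 16.7 normalised CPM in the controls and 28.6, 29.1 and 30.5 after immersion. Both groups were tight and far apart, and the log2 fold change was 0.71 ± 0.17 (edgeR adjusted p = 0.0907). DESeq2 gave it the smallest adjusted p of all members, 0.00153.

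A shorter gene with the same description (TRINITY_DN8537_c0_g1) went the other way, with 11.7, 9.14 and 6.34 in the controls and 6.58, 6.02 and 5.76 after immersion. Its log2 fold change was -0.57 ± 0.27, its control 3 lay among the immersion libraries, and the sum of both genes gave 0.37 ± 0.17 (edgeR unadjusted p = 0.0591). Reads may have been split between the pair.

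Rad18 puts a single ubiquitin on the replication clamp PCNA together with the E2 that Ubc6 represents in Drosophila. It had 19.7, 15.4 and 13.9 normalised CPM in the controls and 28.1, 25.7 and 26.5 after immersion, with no overlap (0.71 ± 0.20, edgeR adjusted p = 0.0914). Among the members of at least 3000 bases it was the 1 higher at an unadjusted p under 0.05, and with the length trend removed its log2 fold change was 0.82. Rnf8 marks chromatin at DNA double-strand breaks. It had 32.4, 18.4 and 14.3 in the controls and 43.7, 49.9 and 42.4 after immersion (1.06 ± 0.30, edgeR adjusted p = 0.0924), again with every immersion library above every control.

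Of 13 members with a role in DNA damage or replication, a grouping drawn up after the values were seen, 10 were higher and 3 lower. The median log2 fold change was 0.64. Among them, FANCL and ube2t form the ligase and E2 of the Fanconi anaemia pathway. FANCL had 13.6, 8.58 and 3.66 normalised CPM in the controls and 14.9, 15.3 and 15.0 after immersion, and ube2t had 7.94, 6.22 and 2.04 against 8.85, 12.8 and 12.0. In both, control 1 lay just under the immersion libraries and control 3 far under them (0.80 ± 0.42 and 1.05 ± 0.45, edgeR adjusted p = 0.198 and 0.147).

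USP1, the hydrolase that reverses both the PCNA and the Fanconi marks, had 46.0, 42.9 and 45.8 against 51.6, 51.1 and 48.9 (0.17 ± 0.13, edgeR adjusted p = 0.351). The 3 lower ones were HERC2, the shorter RFWD3 gene and Ubc6. The 13 have a median length of 2046 bases, shorter than the members as a whole. Their median was 0.35 with the length trend removed, 0.23 with the term for worm reads and 0.39 without control 3.

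**Figure D5:**
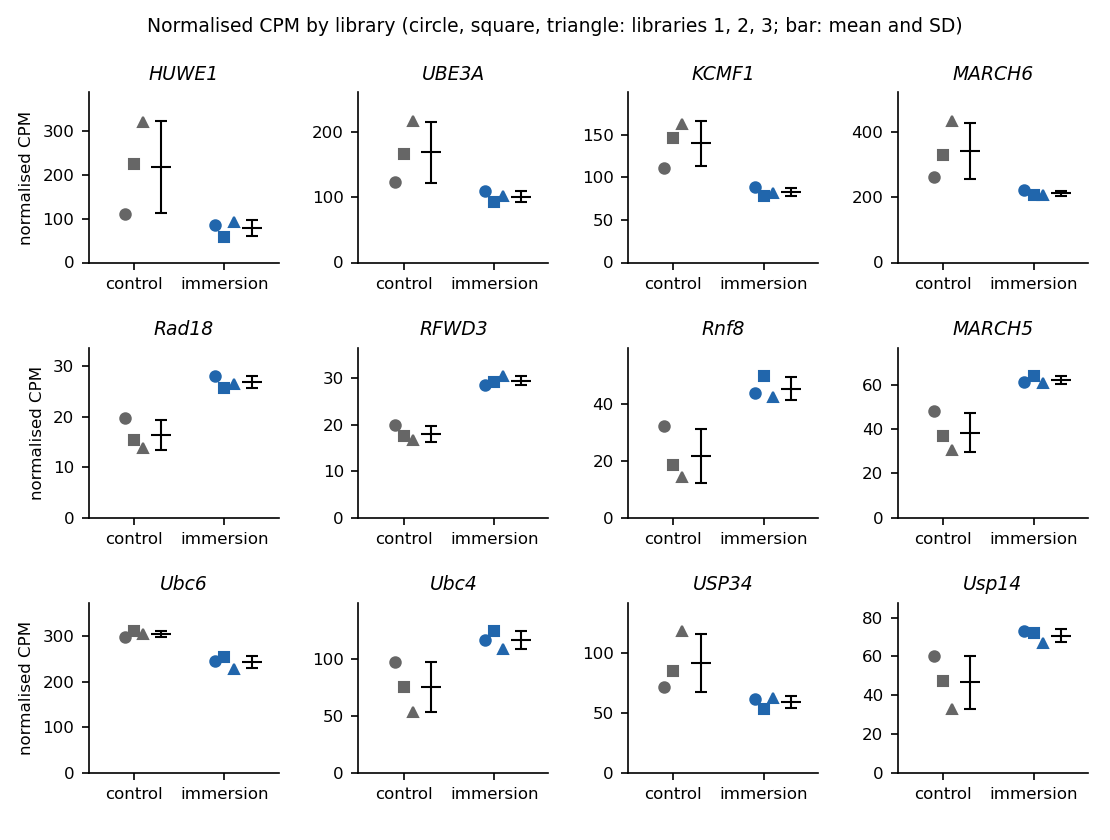
Normalised CPM of 12 members in each control (grey) and immersion (blue) library, with the mean and SD of each group (n = 3). HUWE1 is the gene without the HECT domain and RFWD3 the longer of its pair. The groups do not overlap in any of the 12, and control 1 is the control nearest to the immersion mean in each. HUWE1 ranges from 57.4 to 321.

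Members of endoplasmic reticulum-associated degradation, which clears misfolded proteins from that compartment, did not share a direction. MARCH6 had 263, 329 and 435 normalised CPM in the controls and 222, 207 and 208 after immersion (-0.69 ± 0.21, edgeR adjusted p = 0.0979). All immersion libraries were below all controls. The synoviolin gene sip3, the main ligase of the pathway in yeast and animals, had 126, 121 and 148 against 115, 102 and 103, with no overlap and a log2 fold change of -0.31 ± 0.15 (edgeR adjusted p = 0.173).

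Higher were RNF185, tmem129 and the E2s UBE2G2, Ube2j2 and UBE2J1 that serve these ligases. The membrane ligase tmem129 had 16.9, 9.33 and 7.25 normalised CPM in the controls and 20.7, 20.7 and 21.4 after immersion (0.91 ± 0.32, edgeR adjusted p = 0.114). RNF185 had 150, 106 and 64.6 against 160, 162 and 152 (0.56 ± 0.29, edgeR adjusted p = 0.189). In both, control 1 was the nearest control and control 3 the farthest. Of the 9 tested genes of this group, 6 were higher and 3 lower, and their median was 0.34, or -0.04 with the term for worm reads. Those named here were chosen after their values were seen. With the length trend removed, MARCH6 and sip3 had log2 fold changes of -0.49 and -0.40.

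MARCH5 sits in the outer mitochondrial membrane and acts on mitochondrial fission and on mistargeted proteins. It had 48.0, 36.8 and 30.4 normalised CPM in the controls and 61.4, 64.0 and 60.9 after immersion. The 3 immersion libraries lay close together and above all controls (0.69 ± 0.19, edgeR adjusted p = 0.0922). Usp30, which removes ubiquitin from mitochondria and opposes parkin, had 37.7, 29.9 and 30.3 in the controls and 34.9, 35.9 and 33.2 after immersion, with overlap (0.09 ± 0.16, edgeR adjusted p = 0.699).

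KCMF1 had the smallest p of the members. It works with a large N-recognin, a ligase that reads the first residue of a protein as a degradation signal. Its normalised CPM was 111, 146 and 163 in the controls and 88.4, 78.7 and 81.2 after immersion. The groups did not overlap, the immersion libraries were tight, and the log2 fold change was -0.76 ± 0.18 (edgeR adjusted p = 0.0907; -0.33 with the length trend removed). UBR2, an N-recognin itself, had 102, 103 and 108 against 82.1, 62.1 and 73.8 (-0.52 ± 0.15, edgeR adjusted p = 0.0924; -0.04 with the length trend removed). Its controls were nearly level, and all immersion libraries lay below them.

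Within the UBR family, Ubr3 (-0.56) was also lower, and the 2 short genes described as UBR7 were higher. The more abundant of these (TRINITY_DN1101_c0_g2, 163 ± 46.0 TPM, SD, n = 6) had 38.8, 30.0 and 25.1 normalised CPM in the controls and 36.2, 47.0 and 43.6 after immersion. Control 1 lay inside the immersion range (0.43 ± 0.21, edgeR adjusted p = 0.174).

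Mylip in mammals degrades the low-density lipoprotein receptor. It had 80.3, 106 and 127 normalised CPM in the controls and 67.5, 59.97 and 67.6 after immersion, with no overlap (-0.69 ± 0.19, edgeR adjusted p = 0.0923; -0.37 with the length trend removed). Ligases of receptors and signalling, a grouping that includes Mylip and was drawn up after the values were seen, were mixed, with 5 higher and 9 lower of 14 tested and a median of -0.16. MIB2, which promotes the uptake of Notch ligands, had in its longer gene 42.7, 57.0 and 70.6 against 38.8, 29.7 and 40.4 (-0.64 ± 0.23, edgeR adjusted p = 0.113). The gene described as sina-like, after a Drosophila ligase of eye development, had 19.5, 18.5 and 7.47 in the controls and 27.7, 33.5 and 29.9 after immersion (1.00 ± 0.35, edgeR adjusted p = 0.112). In both, every immersion library lay on the same side of every control. MIB2 and the sina-like gene were chosen after their values were seen. Without control 1, KCMF1, Mylip, RFWD3 (the longer gene), Rad18, MARCH5 and Rnf8 had adjusted p between 0.00669 and 0.00972.

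Ligases of protein quality control did not share a direction either. STUB1, or CHIP, which tags clients of the chaperones Hsp70 and Hsp90, had 62.2, 46.8 and 31.5 normalised CPM in the controls and 73.6, 72.8 and 72.9 after immersion. The immersion libraries were almost identical and above all controls (0.64 ± 0.24, edgeR adjusted p = 0.122). LTN1, or listerin, which marks nascent chains on stalled ribosomes, had 211, 268 and 327 against 223, 228 and 237, with control 1 below the immersion libraries and the other controls above them (-0.23 ± 0.19, edgeR adjusted p = 0.384). Both were chosen after their values were seen.

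The 20 tested USP hydrolases, 9 higher and 11 lower, had their median log2 fold change at -0.03, or 0.13 with the length trend removed. At an unadjusted p under 0.05, 1 was higher (5%, against 14.2% of all genes) and 6 were lower (30.0%, against 20.6% of all genes and 37.0% of those of at least 3000 bases). Usp14, which trims chains at the proteasome, was the higher one. It had 59.99, 47.1 and 32.9 normalised CPM in the controls and 73.1, 72.0 and 67.1 after immersion, with no overlap (0.60 ± 0.22, edgeR adjusted p = 0.121). USP46 had 44.7, 32.7 and 16.6 against 46.1, 53.6 and 44.2, where control 1 lay inside the immersion range (0.61 ± 0.33, edgeR adjusted p = 0.206). USP35 had 39.0, 35.1 and 39.2 against 44.0, 42.1 and 42.9, a small step with no overlap (0.19 ± 0.14, edgeR adjusted p = 0.339).

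The lower USP hydrolases were long genes. USP9X is the homolog of the Drosophila fat facets, which regulates endocytosis in the eye. It had 99.3, 144 and 204 normalised CPM in the controls and 99.6, 85.0 and 91.0 after immersion, so control 1 and immersion 1 were level (-0.70 ± 0.26, edgeR adjusted p = 0.120). USP34, which takes part in Wnt signalling in mammals, had 72.1, 84.9 and 119 against 62.2, 53.3 and 62.3, without overlap (-0.63 ± 0.21, edgeR adjusted p = 0.105). With the length trend removed their log2 fold changes were 0.04 and 0.11.

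USP31 had 64.6, 88.3 and 113 normalised CPM in the controls and 56.1, 53.9 and 59.7 after immersion, also without overlap (-0.65 ± 0.21, edgeR adjusted p = 0.105). Usp3, which acts on histones, had 58.9, 81.6 and 104 against 54.8, 51.3 and 63.6, where control 1 overlapped (-0.53 ± 0.22, edgeR adjusted p = 0.142). Without control 1, USP9X, USP34, USP31 and Usp3 passed with adjusted p between 0.00787 and 0.0125. With the length trend removed, USP31 and Usp3 had log2 fold changes of -0.21 and -0.16. Of the 15 USP genes of at least 3000 bases, 11 were lower, with a median of -0.30, and all 5 shorter ones were higher, with a median of 0.18. Closer to 0 lay USP47, Usp36, CYLD, Usp45 and usp33, with log2 fold changes between -0.20 and 0.07 and overlapping groups. These 5 were chosen after their values were seen.

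The UCH family frees ubiquitin from small adducts and peptides. Its gene Uch was the most abundant hydrolase (81.8 ± 31.3 TPM, SD, n = 6). It had 57.5, 33.6 and 19.0 normalised CPM in the controls and 57.5, 68.8 and 59.2 after immersion. Control 1 was level with the lowest immersion library, and control 3 was far below all of them (0.75 ± 0.36, edgeR adjusted p = 0.172; 0.0114 without control 1). Usp5, which disassembles free chains and was the second most abundant hydrolase by the rule, had 108, 94.6 and 107 against 125, 112 and 113 (0.18 ± 0.14, edgeR adjusted p = 0.349). The histone hydrolase calypso of the Polycomb system had 52.9, 42.3 and 50.3 against 54.6, 45.5 and 55.6, with overlap (0.10 ± 0.16, edgeR adjusted p = 0.657). The median of the 2 tested genes of the family was 0.42, or 0.27 with the length trend removed.

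The rest of the ubiquitin pathway, 178 genes of the same bee genera that are not members, had 160 tested genes, and their median log2 fold change was 0.40, or 0.28 with the length trend removed and 0.17 with the term for worm reads. An unadjusted p under 0.05 was reached by 58 higher genes (36.3%, against 14.2% of all genes) and 14 lower ones (8.75%, against 20.6%), and an adjusted p of 0.05 by 0. Enzymes that activate ubiquitin or its relatives had a median of 0.46 over 7 genes, with 4 higher and 1 lower. Proteasome subunits and assembly factors had 0.72 over 35 genes, with 21 higher and 1 lower. Ubiquitin-like modifiers and their enzymes had 0.60 over 25 genes, with 12 higher and 2 lower, and cullin, anaphase-promoting complex and COP9 genes had 0.15 over 55, with 11 and 6. RING finger and TRIM genes not described as ligases had -0.04 over 14, with 1 and 3, and shuttles and segregase factors 0.24 over 10, with 4 and 0.

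The lists differed in median length as well, from 878 bases for the genes of ubiquitin itself and 1235 for the proteasome to 3730 for the RING finger and TRIM genes. The proteasome median was 0.49 with the length trend removed and 0.38 with the term for worm reads. The 4 tested genes of ubiquitin had positive log2 fold changes with all libraries. Their median was 5.28 without control 1 but -0.38 with the term for worm reads, where 2 were lower. Without control 3, 1 was lower. Among the 4, a UBQ3 gene (TRINITY_DN1602_c0_g1) had 15.95, 0 and 0 normalised CPM in the controls and 5.02, 8.44 and 11.5 after immersion. UBQ3 thus had reads only in the 4 libraries with worm reads. As 1 gene cannot set a median over 4, the value without control 1 does not rest on UBQ3 alone. RpS27A, a ribosomal protein made as a fusion with ubiquitin, had 227, 189 and 96.6 normalised CPM in the controls and 298, 383 and 352 after immersion, with no overlap (1.01 ± 0.31, edgeR adjusted p = 0.0984). Among 10 other deubiquitinases, trbd, the Drosophila trabid of Wnt and immune signalling, had 220, 275 and 280 against 132, 117 and 108. Its groups were far apart (-1.12 ± 0.17, edgeR adjusted p = 0.0639), and the smallest adjusted p of all 9250 genes was also 0.0639.

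Marker genes of muscle, nervous system and eye, ovary and testis were also compared, and none passed an adjusted p of 0.05. The lists were matched on words in the description. The testis list thus also took in PAOX, a spermine and spermidine oxidase, so its values are not those of testis genes alone. Of 38 tested muscle genes, an unadjusted p under 0.05 was reached by 23 lower and 1 higher gene, and the median log2 fold change was -0.86, over a median length of 6619 bases. These are 60.5% lower and 2.63% higher, against 20.6% and 14.2% of all genes. The muscle median was -0.34 with the length trend removed and -0.35 with the term for worm reads. The summed level of the 42 muscle genes was 22331 to 24121 TPM in the controls and 16214 to 27854 TPM after immersion, and 2 of them were at 0 in every library. The 36 tested nervous system and eye genes had a median of -0.35, over a median length of 2443 bases. An unadjusted p under 0.05 was reached by 13 lower genes (36.1%, against 20.6% of all genes) and 0 higher ones (against 14.2%). Their median was -0.16 with the length trend removed and -0.08 with the term for worm reads. Their sum was 1279 to 1490 TPM in the controls and 1173 to 1222 TPM after immersion, without overlap and with none at 0 throughout. Ovary and testis lists had medians of -0.01 over 5 genes and 0.17 over 24, with overlapping sums of 680 to 1279 and 734 to 860 TPM for ovary and 1144 to 1442 and 1129 to 1322 TPM for testis. Their part in the values of the ligases, E2s and hydrolases was not tested.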

How the data were processed

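RNA of 6 libraries (oligo(dT) selection, per the labels' protocols) was assembled without a genome, and the deposited table lists assembled genes with descriptions, Swiss-Prot names, Pfam domains and lengths, but no coordinates and no sequences. The authors deposited estimated counts, which need not be whole, and TPM. Per the submitters' processing notes the tools were cutadapt 1.9, Salmon and edgeR, with roles not given in the sources used here. Reads can be split between assembled genes of 1 locus or between paralogs: 36 members share their description with another member. The Swiss-Prot name goes against the description in 1 CBL-B gene (PEX6), the Hakai gene (dbx1b) and both TRAIP-like genes (RNF165 and CG2145). In others the number differs: USP35 is described as hydrolase 38-like and usp33 as hydrolase 20.

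Estimated counts were rounded for the quasi-likelihood test of edgeR 4.0.16, run under R 4.3.3 (low counts removed by filterByExpr, TMM factors, glmQLFit and glmQLFTest, treatment as the sole covariate, n = 3 per group, two-sided, Benjamini-Hochberg over all 9250 tested genes whose description names a Hymenoptera genus, threshold 0.05). The test was checked on simulated counts, with the spread between libraries (dispersion) capped at 0.05. The simulation held no outlying control, length trend or foreign reads, so it does not show the power of the test on these libraries. Normalised CPM is the CPM of the estimated counts scaled by TMM. A log2 fold change is the immersion level minus the control level, given with its standard error. Values at 1 library have counting error on top of the spread shown. Depth was alike in the groups, so it limits the low members most. Alternatives were DESeq2 1.42.0, limma 3.58.1, other normalizations and filters, the whole table, summed descriptions, a loess length trend (span 0.3), a worm-read term, a replicate block and each library left out.

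Named genes are, in each of the E2, E3 and hydrolase classes, the 4 higher and 4 lower members with the smallest p and the 2 with the highest mean TPM. Other members were named after their values were seen, and functional groupings were made then too. The members and all lists were chosen with earlier results of these data known. Classes follow words in the description and Swiss-Prot name. Uch was moved to the UCH class for its Pfam domain after the data were seen, and the pattern for RNF14 was read as not matching RNF145 or RNF146. No sequence was used here. Some members, counted in their classes, are not reported here by name.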

Additional observations from a re-analysis of the deposited data

Results flagged for a closer look

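Genes with the same descriptions as the members but matching a nematode worm, 56 in all, were outside the comparison. They held 89.6, 92.6 and 89.0 CPM of all counts in immersion libraries 1, 2 and 3, against 21.0 in control 1 and 0.107 and 0.0581 in controls 2 and 3. They are pointed out because their level in each immersion library exceeds that of every control. The members themselves, chosen by bee descriptions, do not include these genes, and their source was not tested.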

How the results depend on the processing

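The settings differed most in how many members passed an adjusted p of 0.05: 0 in edgeR, 21 in DESeq2, 94 in limma-voom with library weights, and 0 to 69 with 1 library left out, the 69 without control 1. Members higher at an unadjusted p under 0.05 numbered 15, with 8 in the whole table, 53 with library weights, 2 with the term for worm reads and 5 to 44 with 1 library left out. Members lower numbered 27, with 43 with library weights, 11 with the length trend removed, 3 with the term and 6 to 42 with 1 library left out. Members without overlap numbered 59 (50.4%, against 46.2% of all genes), and 62 to 100 with 1 library left out. Of all genes, 48.8% to 75.4% did not overlap in those fits. The 100 came without control 1 (84.0%, against 75.4% of all genes). The members' median of -0.01 became 0.11 with library weights, 0.087 with upper-quartile factors, 0.15 with the length trend removed and -0.041 to 0.052 with 1 library left out. The causes were not tested.

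Of 513 values of the 27 named genes under 19 alternatives, 450 kept direction and side of the threshold, 60 kept direction and newly passed, 0 lost a call, and 3 changed sign, all with the length trend removed: UBE2H (0.15), USP34 (0.11) and USP9X (0.037). The deviations of same-numbered libraries from their group means correlated with r of -0.15, 0.14 and 0.16. The labels state no pairing, and none was used in the main fit. With 3 libraries per group the deviations constrain each other, so these values cannot exclude a pairing. With the replicate number as a block, 0 members passed, and an unadjusted p under 0.05 was reached by 18 higher and 20 lower members. Low depth limits the 11 untested fragments most, and they are among the 22 members below 10 TPM. A long member below 10 TPM can still be well counted. HERC2, at 8.1 TPM, had 61.9 to 227 normalised CPM.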

Other observations

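Members that act on histones and chromatin, a grouping made after the values were seen, had 2 higher and 5 lower genes of 7, with their median log2 fold change at -0.04. Bre1, the ligase that puts a single ubiquitin on histone H2B, had 53.5, 45.4 and 49.7 normalised CPM in the controls and 49.7, 47.6 and 50.4 after immersion, with overlapping groups (-0.01 ± 0.14). The hydrolase usp22, which takes that mark off as part of the SAGA complex, had 56.7, 71.3 and 72.1 in the controls and 53.3, 50.7 and 52.8 after immersion, with no overlap (-0.35 ± 0.15, edgeR adjusted p = 0.142). MSL2, a ligase of the male dosage compensation complex in Drosophila, had 25.8, 19.5 and 12.4 against 25.0, 25.0 and 25.0, so control 1 was above the immersion libraries and control 3 far below (0.38 ± 0.27, edgeR adjusted p = 0.314).

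The highest log2 fold change of the members, 1.15 ± 0.44, belonged to rnf181, a short RING ligase of 849 bases. It had 24.5, 15.6 and 6.34 normalised CPM in the controls and 30.5, 40.5 and 32.0 after immersion, with no overlap (edgeR adjusted p = 0.124). The pair of genes described as TRAIP-like, a ligase of the replication machinery, had log2 fold changes of 0.64 and 0.76. Their Swiss-Prot names, RNF165 and CG2145, both go against that description.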
